A study of Mus musculus with 2 samples.

Results

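Cathepsins are the proteases of the endosome and lysosome, and cystatin C, encoded by Cst3, is a secreted inhibitor of most of those that work through a cysteine. The genes described here are 7 members of the papain-like and legumain group (Ctsb, Ctsh, Ctsk, Ctsl, Ctss, Ctsz and Lgmn), the aspartic proteases Ctsd and Ctse, and Cst3. They were chosen by symbol, and all 10 were found among the 32245 gene symbols of both count matrices. Their levels were followed through macrophage-like, dendritic-like, B cell-like, endothelial-like and adrenocortical-like cells at 6 and 9 weeks of age, and Ctse is treated apart.

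The cells came from adrenal glands of female C57BL/6J mice of genotype SF1-Cre+;Znrf3Fx/Fx, so both groups carry the Cre driver and the floxed alleles, and no library from mice without them was used. SF1 is active in steroid-producing cells, and Znrf3 codes for a membrane enzyme that removes Wnt receptors. The submitters link 6 weeks to overgrowth of the gland and 9 weeks to its regression, and ask how immune cells differ between these ages. There was 1 library per age, made from 2 pooled adrenals at 6 weeks and 3 at 9 weeks, so age, animals and library cannot be told apart. No test across libraries was possible, and every interval given is a 95% interval that covers counting error only.

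After filtering, 8133 cells at 6 weeks and 9941 at 9 weeks remained, with medians of 11348 and 7029 unique molecular identifiers (UMIs, 1 per captured transcript) per cell. The libraries shared 29 barcodes, and leaving these out changed none of the 17 calls of 1.5-fold made on these genes over 8 classes. Cell types are names given here to clusters from marker genes, and where they depart from the study's own types, values may depart too. Doublets called by Scrublet were left out. The 5 classes held 966 and 2290 macrophage-like, 258 and 1148 dendritic-like, 135 and 332 B cell-like, 1532 and 1594 endothelial-like, and 4300 and 2126 adrenocortical-like cells at 6 and 9 weeks. Each class carried its own markers, with all 10 macrophage, all 10 dendritic, all 8 B cell, all 10 endothelial and all 12 adrenocortical markers detected at both ages. The clusters were named from these markers, and detection means at least 1 UMI, so this does not test the names. All 12 adrenocortical markers were also detected in macrophage-like cells. Levels are UMIs summed over the cells of a class and scaled to the total of that class (CPM), and Znrf3 itself stood at 45.5 and 54.2 CPM in adrenocortical-like cells, counts which do not show whether the deleted part is missing.

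Lysosomal proteases are made as inactive precursors, sorted to the lysosome and activated there. In antigen-presenting cells cathepsin S removes the invariant chain from class II molecules, legumain cuts after asparagine, and cathepsins B, H, L and Z act as endo- and exopeptidases with broad targets. Cystatin C is produced by many cells and secreted, and it is a familiar marker of conventional dendritic cells in the mouse.

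The class set the level of these genes far more than the age did. In macrophage-like cells the 10 genes together took 1.79% of all UMIs at 6 weeks and 1.65% at 9 weeks. Dendritic-like cells gave them 3.28% and 3.56%, nearly all of it Cst3. The other classes spent much less on them, between 0.171% (B cell-like, 6 weeks) and 0.321% (endothelial-like, 9 weeks).

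**Figure D1:**
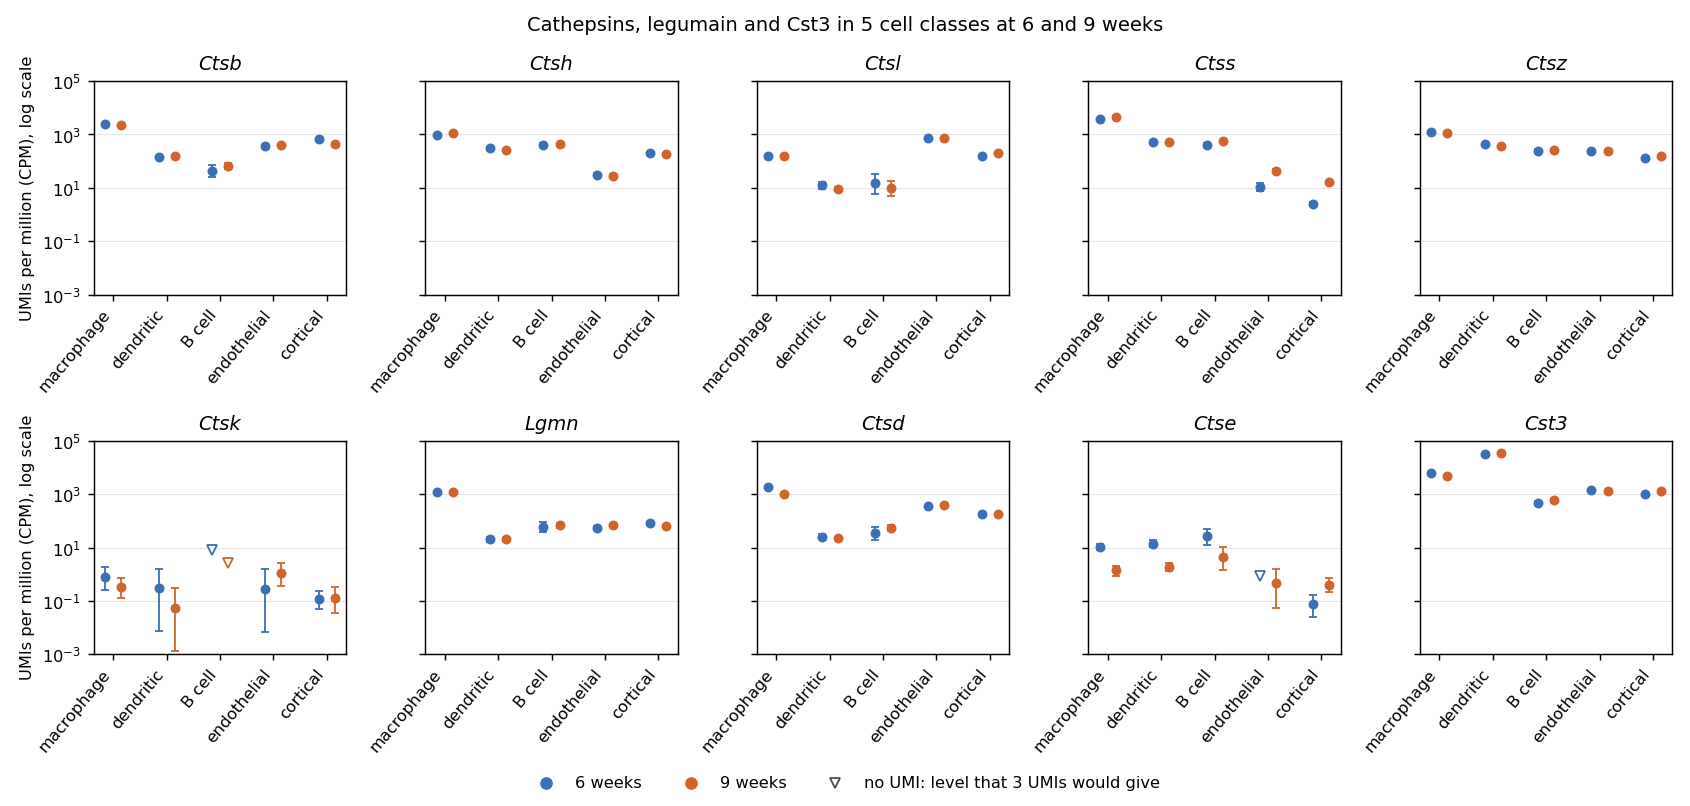
Level of each of the 10 genes, in CPM on a log scale, in 5 cell classes at 6 weeks (blue) and 9 weeks (orange), with exact Poisson 95% intervals; open triangles mark the level that 3 UMIs would give where none was found. Cst3 is highest in dendritic-like cells (31245 and 34186 CPM), Ctsl in endothelial-like cells (740 and 745 CPM), and most other genes in macrophage-like cells.

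A gene was compared between ages when 1 library gave 10 CPM and both together 10 UMIs, and it was counted as higher or lower when the ratio of the levels, with 5 CPM added to each, passed 1.5-fold. Ctse reached 10 CPM in the immune classes only at 6 weeks, so it could be counted there only as lower. Ctss in adrenocortical-like cells and Lgmn in neutrophil-like cells reached it only at 9 weeks and could be counted only as higher. Their part in the counts below is not read against the shares of all genes. In macrophage-like cells 9 of the 10 genes were compared, and 2 (Ctsd and Ctse) were lower at 9 weeks. Of all 7870 genes compared there 3.93% passed the same fold, 1.5% upward and 2.43% downward. In dendritic-like cells 1 of 9 (Ctse) was lower, where 3.87% of all genes passed, 1.34% upward and 2.52% downward. In B cell-like cells 1 of 9 (Ctse) was lower, against a large background of 22.8% in a class of few cells, 16.6% upward and 6.16% downward. In endothelial-like cells 1 of 8 (Ctss) was higher, where 2.6% passed, 1.34% upward and 1.26% downward. In adrenocortical-like cells 1 of 8 was higher (Ctss) and 1 lower (Ctsb), where 11.8% passed, 7.77% upward and 4.08% downward. Among the other immune classes, monocyte-like cells had 1 of 9 lower (Ctse), beside 11.6% of all genes past the fold (7.62% upward and 3.97% downward). T/NK-like cells had 3 higher (Ctss, Lgmn and Cst3) and 1 lower (Ctse) of 9, beside 6.2% (3.54% upward and 2.65% downward). Neutrophil-like cells had 3 higher (Ctsh, Ctss and Lgmn) and 2 lower (Ctsd and Ctse) of 9, beside 59.7% (26.1% upward and 33.5% downward), a background too large to read the count against. The median log2 ratio of the genes compared was -0.04 in macrophage-like cells, -0.10 in dendritic-like, 0.19 in B cell-like, 0.05 in endothelial-like and 0.09 in adrenocortical-like cells, beside medians of 0.04, 0.06, 0.12, 0.01 and 0.07 over all genes compared. In the other immune classes it was -0.16 in monocyte-like, -0.07 in neutrophil-like and 0.37 in T/NK-like cells, beside 0.04, -0.17 and 0.05.

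**Figure D2:**
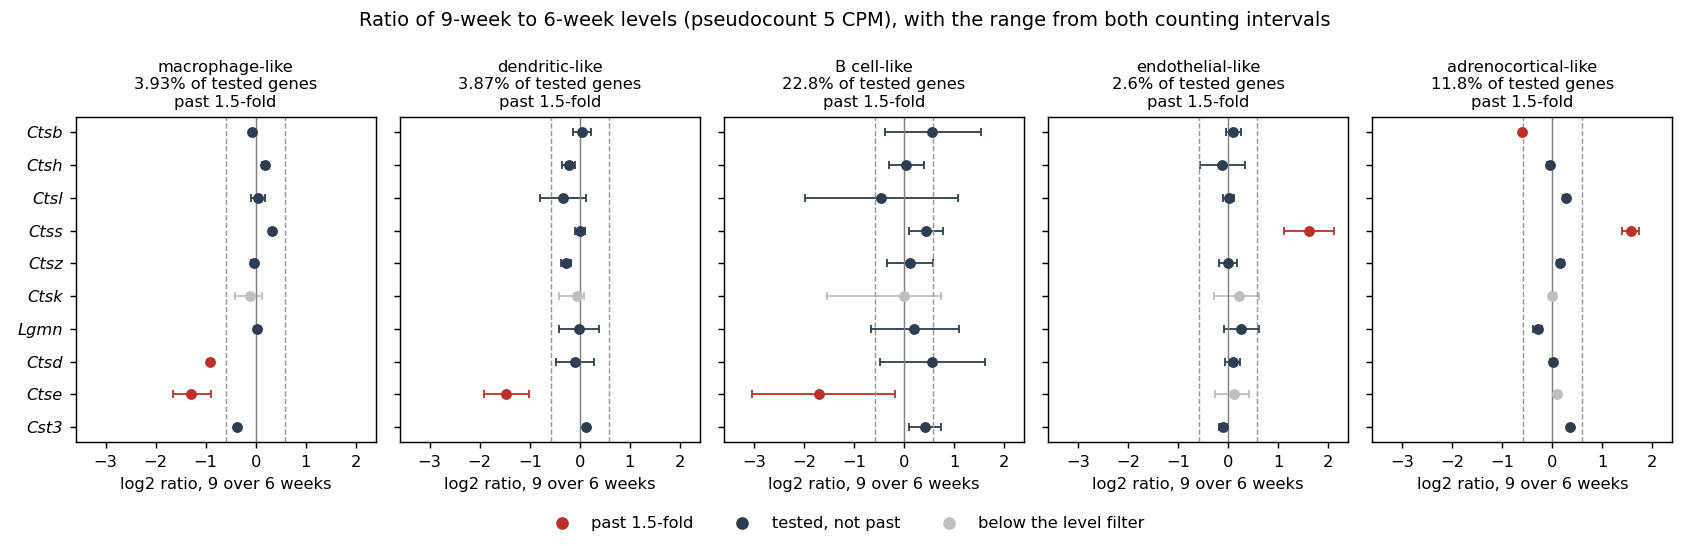
Log2 ratio of the 9-week to the 6-week level (pseudocount 5 CPM) of each gene in 5 classes, with the range made from the counting intervals of both ages; dashed lines mark 1.5-fold. Red points lie past 1.5-fold, grey points were too low to compare, and each panel gives the share of all compared genes past that fold, from 2.6% in endothelial-like to 22.8% in B cell-like cells.

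Ctss (ENSMUSG00000038642, chr3:95526786-95556403, plus strand, mm10 with GENCODE M21) encodes cathepsin S, a protease of antigen-presenting cells. It lies 17423 bases downstream of Ctsk with no other annotated gene between them. Macrophage-like cells had 3731 CPM (3683 to 3779) in the younger library and 4697 CPM (4665 to 4729) in the older one, a log2 ratio of 0.33 that did not pass 1.5-fold. The intervals of the ages do not overlap, and the 9-week level was above the 6-week level in each of the 4 macrophage-like clusters, from 2804 and 3458 CPM in the cycling cluster to 3956 and 4952 CPM in the largest cluster. Next came monocyte-like cells at 2280 and 2351 CPM, then dendritic-like cells at 526 and 527 CPM and B cell-like cells at 404 and 550 CPM. Thinned to 2000 UMIs per cell, 99.3% of 896 macrophage-like cells at 6 weeks and 99.9% of 2186 at 9 weeks held a Ctss UMI (unthinned 99.6% and 99.8%), with medians of 7 and 9 UMIs. These leave out 70 and 104 shallower cells.

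The RefSeq promoter table (GRCm38.p6) holds 7 of the 10 genes. Its windows were searched on both strands, over the 250 bases before the start, for 2 copies of GAAA with any 2 bases between them, the core of the element through which interferon-regulated factors act. Of all 32851 windows 2.98% held it, and of the 7 genes only Ctss did, 21 bases before its start. The 30 bases around this match are shown because cathepsin S is the member tied most closely to antigen presentation, with the match in capitals.
Ctss, chr3:95526755-95526784, plus strand: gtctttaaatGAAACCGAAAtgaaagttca
A match describes the letters of this window and is not evidence of a bound factor.

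In adrenocortical-like and endothelial-like cells Ctss was low and higher at 9 weeks. Adrenocortical-like cells had 2.57 CPM (2.20 to 2.98) and 17.4 CPM (15.9 to 18.9), a log2 ratio of 1.56. Endothelial-like cells had 11.2 CPM (8.0 to 15.3) and 44.8 CPM (38.8 to 51.5), a log2 ratio of 1.62. Set against macrophage-like cells of the same age, the adrenocortical-like level was 0.0688% at 6 weeks and 0.370% at 9 weeks. Genes that define macrophages stood at nearly the same fractions there. C1qa, C1qb, C1qc, Adgre1, Csf1r and Ms4a7 lay between 0.0576% and 0.0936% at 6 weeks and between 0.344% and 0.563% at 9 weeks. In endothelial-like cells Ctss was at 0.30% and 0.955% of the macrophage-like level, and the same 6 genes at 0.259% to 0.384% and 0.725% to 0.918%. Ctss thus lay within the range of the macrophage genes in adrenocortical-like cells at both ages and in endothelial-like cells at 6 weeks, and just above it in endothelial-like cells at 9 weeks. A level within this range is not separated from macrophage RNA by these values and is not read as expression of the class. The part of macrophage RNA in the 9-week endothelial-like level was not tested. In adrenocortical-like cells 0.636% of thinned cells held a Ctss UMI at 6 weeks and 2.4% at 9 weeks (unthinned 3.19% and 10.5%). The other members did not lie at that fraction. Ctsb in adrenocortical-like cells was at 27.6% and 19.1% of the macrophage-like level, and Ctsl at 104% and 122%.

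**Figure D3:**
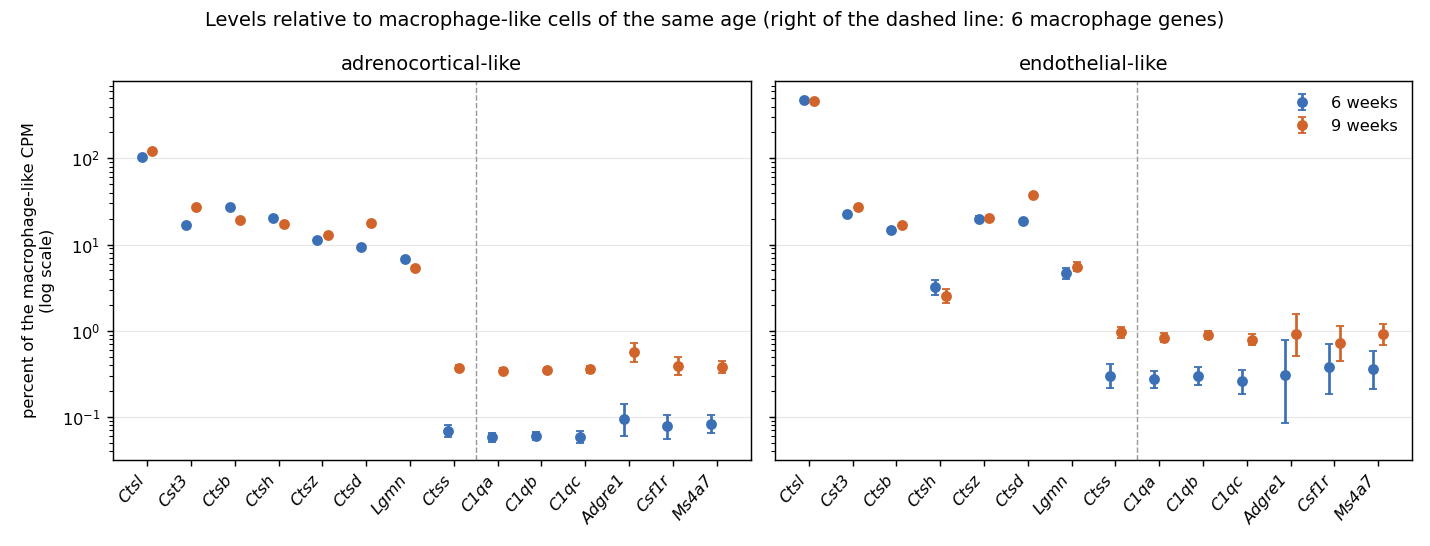
Level of each gene in adrenocortical-like (left) and endothelial-like cells (right) as a percentage of its level in macrophage-like cells of the same age, on a log scale, with 95% counting intervals of the plotted class alone. In adrenocortical-like cells Ctss lies among the 6 macrophage genes to the right of the dashed line at both ages (0.0688% and 0.370%), and in endothelial-like cells it does so at 6 weeks (0.30%) and lies above them at 9 weeks (0.955%), while the 7 genes to its left lie between 2.55% and 480.1%.

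Ctsb (ENSMUSG00000021939, chr14:63122462-63145923, plus strand) encodes cathepsin B, a broad endopeptidase that can also trim ends. It overlaps Fdft1 on the opposite strand, and the sources used here do not say whether strand was used in counting. In macrophage-like cells it was at 2460 CPM (2421 to 2499) and 2328 CPM (2306 to 2351). The next level among the 5 classes was that of adrenocortical-like cells, where Ctsb had 679 CPM (673 to 685) in the younger library and 445 CPM (437 to 452) in the older one, a log2 ratio of -0.60 that just passed 1.5-fold. Endothelial-like cells had 367 and 395 CPM, dendritic-like cells 146 and 150 CPM, and B cell-like cells 44.0 and 67.1 CPM with overlapping intervals. The B cell-like level at 9 weeks, 2.88% of the macrophage-like one, lay within the range of the 6 macrophage genes there, 0.361% to 3.15%. Of these genes only Csf1r lay above it. In adrenocortical-like cells 69.4% of thinned cells held a Ctsb UMI at 6 weeks and 53.6% at 9 weeks (unthinned 97.7% and 96.1%), beside 8.33% and 7.62% of B cell-like cells.

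Within the cortex the Ctsb level followed the cluster. The cluster led by Cyp2f2 had 845 and 754 CPM, and the cluster led by Cyp11b1, the enzyme of the last step to corticosterone, had 713 and 629 CPM. The Wnt4-positive clusters, led by Ecrg4 and by Ly6d, had 298 and 300 CPM and 320 and 309 CPM. The first of these groups, the Cyp2f2 cluster, held 1776 cells at 6 weeks and 129 at 9 weeks, whereas the Ecrg4 cluster held 590 and 664. With the 4 large clusters weighted alike the log2 ratio of Ctsb was -0.13, and in the Cyp11b1 cluster alone it was -0.18. It also missed 1.5-fold without doublet removal (-0.51) and in cells without mitotic UMIs (-0.57).

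Ctsl (ENSMUSG00000021477, chr13:64359337-64370890, minus strand) encodes cathepsin L, an endopeptidase that also processes the invariant chain in some epithelia. Of the 5 classes endothelial-like cells had the highest level, 740 CPM (712 to 769) and 745 CPM (720 to 771). Adrenocortical-like cells had 160 and 194 CPM and macrophage-like cells 154 and 160 CPM. Macrophage-like and adrenocortical-like levels at 6 weeks had overlapping intervals. Dendritic-like cells had 12.6 and 8.96 CPM and B cell-like cells 15.5 and 9.845 CPM, and these do not differ beyond their intervals. After thinning, 70.9% and 73.2% of endothelial-like cells held a Ctsl UMI, beside 2.76% and 1.15% of dendritic-like cells (unthinned 74.5% and 78.4%, 11.6% and 8.45%). Thinning kept 857 of 1532 and 1202 of 1594 endothelial-like cells, which are shallow. Within the macrophage-like class, Ctsl was 272 and 255 CPM in the cluster led by Mmp12, Trem2 and Gpnmb and 112 and 157 CPM in the largest cluster.

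Ctsh (ENSMUSG00000032359, chr9:90054152-90076089, plus strand) encodes cathepsin H, an aminopeptidase. Macrophage-like cells had 973 CPM (948 to 998) and 1110 CPM (1094 to 1126). B cell-like cells had 420 and 432 CPM, dendritic-like cells 308 and 262 CPM, adrenocortical-like cells 197 and 191 CPM and endothelial-like cells 31.1 and 28.3 CPM. None of these 5 classes passed 1.5-fold, and their order was the same at both ages. Among dendritic-like clusters Ctsh was highest in the small one led by Cd209a and Mgl2, genes of type 2 dendritic cells, at 784 and 1126 CPM, beside 250 and 239 CPM in the large cluster led by Xcr1.

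Ctsz (ENSMUSG00000016256, chr2:174427493-174439039, minus strand) encodes cathepsin Z, a carboxypeptidase, and its locus overlaps Nelfcd on the opposite strand. It had the most even spread of the cysteine cathepsins, with 1218 and 1181 CPM in macrophage-like, 459 and 378 CPM in dendritic-like, 244 and 264 CPM in B cell-like, 242 and 241 CPM in endothelial-like and 137 and 154 CPM in adrenocortical-like cells. B cell-like and endothelial-like levels do not differ beyond their intervals. The dendritic-like log2 ratio was -0.28 (-0.38 to -0.17). Values were lower at 9 weeks in all 4 clusters, from 777 and 520 CPM in the mature cluster with Ccr7 to 536 and 526 CPM in the Cd209a cluster. The last pair comes from 38 and 57 cells, is nearly alike and is not read as a difference.

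Ctsk (ENSMUSG00000028111, chr3:95499256-95509362, plus strand) encodes cathepsin K, the collagen-degrading enzyme of osteoclasts, and was almost missing. Over both libraries macrophage-like cells held 11 UMIs, adrenocortical-like cells 12 and endothelial-like cells 6, and B cell-like cells held 0 at both ages, which allows up to 7.77 CPM at 6 weeks and 2.68 CPM at 9 weeks (3 counts). It was too low to compare in any class. Its highest level was in an unnamed cluster of 25 cells with fibroblast and mural genes such as Dcn, Col1a2 and Rgs5, at 41.0 CPM (8.46 to 120) and 48.6 CPM (10.0 to 142), from 3 UMIs at each age. This cluster was singled out after its values were seen.

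Lgmn (ENSMUSG00000021190, chr12:102394084-102439813, minus strand) encodes legumain, which also activates other cathepsins. Macrophage-like cells had 1202 CPM (1175 to 1230) and 1226 CPM (1210 to 1243), and every other class of the 5 was at least an order of magnitude below. Adrenocortical-like cells had 81.9 and 65.8 CPM, B cell-like cells 59.6 and 68.9 CPM, endothelial-like cells 55.7 and 67.9 CPM, and dendritic-like cells 20.3 and 20.1 CPM. B cell-like and endothelial-like levels do not differ beyond their intervals. After thinning 88.6% and 89.2% of macrophage-like cells held an Lgmn UMI, beside 3.54% and 3.09% of dendritic-like cells (unthinned 97.2% and 97.6%, 13.6% and 17.9%). The dendritic-like level was 1.69% and 1.64% of the macrophage-like one. The range of the 6 macrophage genes in dendritic-like cells was 0.442% to 2.98% in the younger library and 0.714% to 1.86% in the older one. Its top was Csf1r alone, and the next highest genes, C1qb at 0.997% and Adgre1 at 0.812%, lay below Lgmn. The part of macrophage RNA in the dendritic-like Lgmn level was not tested, and it is not read as expression of that class. Among the 4 macrophage-like clusters the highest level was in the one led by Pf4 and Mrc1, genes of resident macrophages, at 1431 and 1412 CPM. In the cortex the Cyp11b1 cluster had 109 and 98.2 CPM and the Ecrg4 cluster 21.3 and 24.8 CPM.

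Ctsd (ENSMUSG00000007891, chr7:142375911-142388038, minus strand) encodes cathepsin D, the main aspartic protease of lysosomes, which cystatin C does not inhibit. Its locus overlaps the model Gm49369 on the same strand, so reads shared by both could be lost to either. In macrophage-like cells Ctsd had 1882 CPM (1848 to 1916) in the younger library and 1000.3 CPM (985 to 1015) in the older one, a log2 ratio of -0.91 (-0.96 to -0.86). Of all genes compared in macrophage-like cells 2.43% were lower past 1.5-fold, and 1.07% had a smaller log2 ratio than Ctsd. Endothelial-like cells had 357 and 381 CPM, adrenocortical-like cells 175 and 177 CPM, B cell-like cells 36.3 and 55.5 CPM and dendritic-like cells 24.97 and 22.9 CPM, none past 1.5-fold. The dendritic-like level at 6 weeks, 1.33% of the macrophage-like one, also lay within the range of the macrophage genes there, though only Csf1r lay above it. At 9 weeks, at 2.29%, the Ctsd level lay above that range.

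The lower Ctsd level of macrophages was not even across their clusters. In the cluster led by Pf4 and Mrc1, with 422 and 277 cells, Ctsd went from 2398 CPM (2334 to 2464) to 996 CPM (948 to 1045). In the cluster led by Mmp12, Trem2 and Gpnmb, genes of lipid-loaded macrophages, it went from 3953 to 2968 CPM over 90 and 93 cells. In the cycling cluster, with 38 and 145 cells, it went from 821 to 514 CPM. In the largest cluster, with 416 and 1775 cells, it was 991 CPM (954 to 1028) and 912 CPM (895 to 928), a log2 ratio of -0.12 that does not pass 1.5-fold. With the 4 clusters weighted alike the log2 ratio of the class was -0.60. All 4 clusters were thus lower at 9 weeks, the Pf4 cluster by the most, and the share of macrophage-like cells that fell in clusters of high Ctsd was smaller at 9 weeks.

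Single cells showed where the difference lay. Thinned to 2000 UMIs, cells of the Pf4 cluster had a median of 3 Ctsd UMIs and a 90th percentile of 12 at 6 weeks, and 2 and 4 at 9 weeks. Of these cells 86.4% and 76.0% held a Ctsd UMI. In the largest cluster the median was 1 at both ages, the 90th percentile 5 and 4, and 68.3% of cells held a UMI at both ages. The upper end of the Pf4 cluster thus came down by more than its middle. Ctss in the same cells had medians of 7 and 9 UMIs, in the opposite direction.

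**Figure D4:**
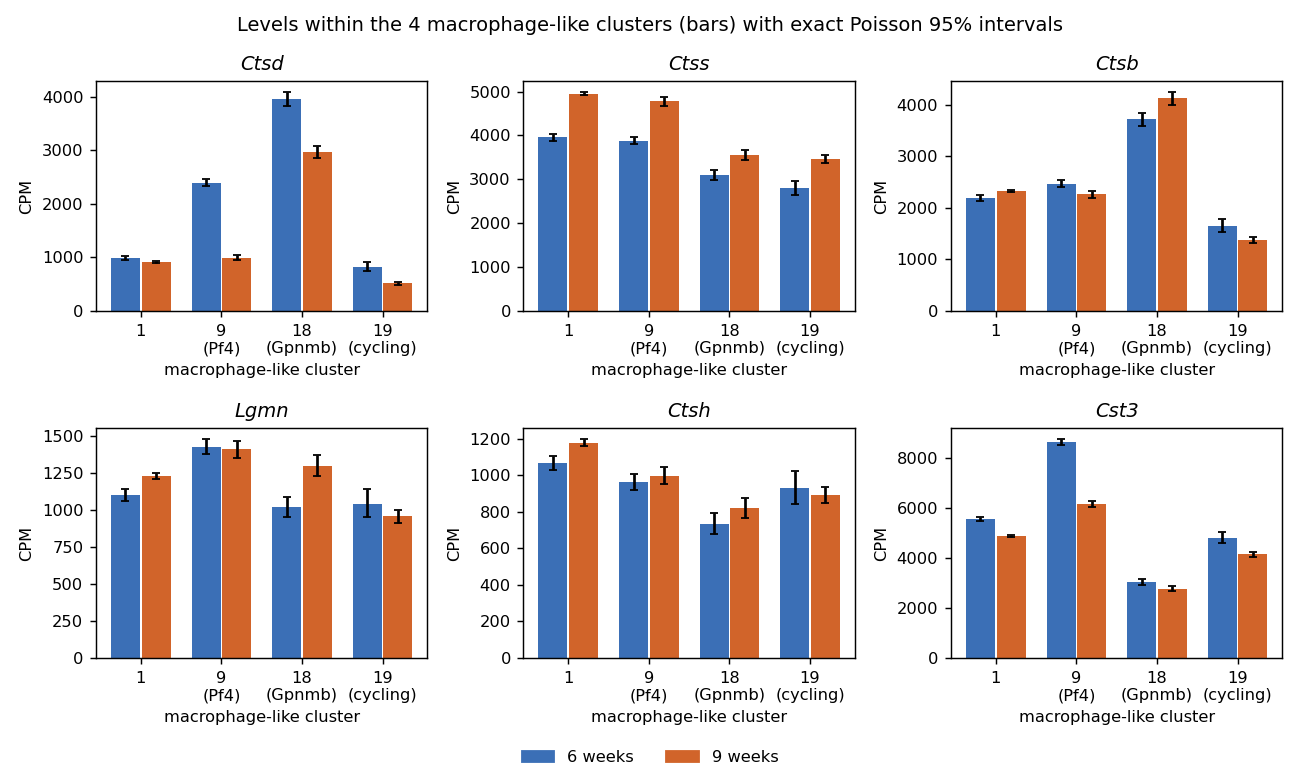
Levels of 6 genes (bars, CPM) within the 4 macrophage-like clusters at 6 weeks (blue) and 9 weeks (orange), with exact Poisson 95% intervals. Ctsd is lower at 9 weeks in each cluster, most in cluster 9 (2398 and 996 CPM), while Ctss is higher in each and Cst3 lower in each.

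The same RefSeq windows were searched for CACGTG, the E-box at the centre of the element that TFEB and its relatives bind at lysosomal genes. Of all windows 6.02% held it. It occurs 2 times before the RefSeq start of Ctsd, and 1 time each before that of Ctsl and before 1 of the 2 Lgmn starts in the table, and it is not in the windows of Cst3, Ctsz, Ctsk and Ctss. The 30 bases around each match are shown to compare the flanks, 5′ to 3′ on the gene's strand with the E-box in capitals. By GENCODE M21, some of whose transcripts start further upstream, 3 of the 4 stretches lie inside the gene. The second of Ctsd is in an exon's untranslated part in 1 of its 3 transcripts, 15 of the 30 bases of Ctsl are in such a part in 1 of 7 transcripts, and that of Lgmn is in an intron of 1 of 3. The first of Ctsd lies outside the gene.
Ctsd, 245 bases before the start, chr7:142388048-142388077, minus strand: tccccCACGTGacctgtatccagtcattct
Ctsd, 98 bases before the start, chr7:142387908-142387937, minus strand: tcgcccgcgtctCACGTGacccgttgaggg
Ctsl, 236 bases before the start, chr13:64370739-64370768, minus strand: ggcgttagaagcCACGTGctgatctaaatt
Lgmn, 49 bases before the start, chr12:102439124-102439153, minus strand: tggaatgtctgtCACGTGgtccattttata
In macrophage-like cells the log2 ratios of the genes with the E-box were -0.91 for Ctsd, 0.05 (-0.09 to 0.19) for Ctsl and 0.03 (-0.02 to 0.08) for Lgmn. A role of the E-box in these levels was not tested. The regulators themselves were compared where detected. Tfeb was at 34.3 and 31.4 CPM, Tfe3 at 68.7 and 74.9 CPM and Mitf at 39.3 and 27.5 CPM in macrophage-like cells, and none of the 6 regulators compared passed 1.5-fold.

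Other lysosomal genes in macrophage-like cells differed little. Of 50 genes compared, from a list of 52 for lysosomal enzymes, membrane proteins and proton pump subunits, 1 was higher past 1.5-fold and 1 lower, with a median log2 ratio of -0.0024 beside 0.04 for all genes. The higher gene was Arsb, a sulfatase, at 20.03 and 46.2 CPM. The lower gene was Atp6v0d2, a proton pump subunit, at 36.7 and 11.2 CPM. Of all genes compared in these cells 1.5% were higher and 2.43% lower past that fold. None of the 10 genes for sorting to lysosomes and none of the 4 other cathepsins compared (Ctsa, Ctsc, Ctsf and Ctso) passed that fold. Ctsc, the dipeptidase that activates granule proteases, was at 1746 and 2045 CPM.

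Genes of class II antigen processing, in which cathepsin S and legumain take part, were higher in macrophage-like cells at 9 weeks for 6 of 8 genes compared. Their median log2 ratio was 0.69, and 1.5% of all genes compared there were higher past 1.5-fold. Ciita, the regulator of class II genes, was at 112 and 202 CPM, H2-DMb1, a peptide-exchange subunit, at 570 and 1004 CPM, Cd74, the invariant chain that cathepsin S degrades, at 15669 and 27183 CPM, and H2-Ab1, a class II chain, at 6108 and 10035 CPM. In dendritic-like cells none of 11 passed the fold (median 0.09), where 3.87% of all genes did. In adrenocortical-like cells 6 of 7 and in endothelial-like cells 8 of 8 were higher, with medians of 2.08 and 2.05, beside the higher fractions of the 6 macrophage genes given above. Of all genes 7.77% and 1.34% were higher there. T/NK-like cells had 5 of 8 higher (median 1.41) and neutrophil-like cells 8 of 8 (median 2.74), where 3.54% and 26.1% of all genes were higher. In B cell-like and monocyte-like cells 2 of 11 were higher, where 16.6% and 7.62% of all genes were. The part of free RNA in the class II values of these classes was not tested.

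Cst3 (ENSMUSG00000027447, chr2:148871722-148875692, minus strand) gave more UMIs than any other member in each of the 5 classes at both ages. B cell-like, endothelial-like and adrenocortical-like cells had 461 and 616 CPM, 1399 and 1304 CPM, and 1039 and 1323 CPM. Macrophage-like cells had 6225 CPM (6163 to 6287) and 4796 CPM (4763 to 4829), a log2 ratio of -0.38 that did not pass 1.5-fold, and it was lower at 9 weeks in all 4 of their clusters, most in the Pf4 cluster (8612 and 6134 CPM). In dendritic-like cells it reached 31245 CPM (31058 to 31433) and 34186 CPM (34101 to 34271), which is 3.12% and 3.42% of all their UMIs. Every dendritic-like cell held Cst3 after thinning, with medians of 60 and 69 of 2000 UMIs, and the 10th percentile was 22.2 and 41.0. Beside these, 31.8% and 41.9% of thinned T/NK-like cells held a UMI (unthinned 45.3% and 65.7%), and 63.0% and 59.6% of B cell-like cells, so a single Cst3 UMI says little about a cell.

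Dendritic-like clusters differed in Cst3 more than the ages did. The Xcr1 cluster, which carries the genes of type 1 dendritic cells, had 36429 and 37377 CPM, its cycling counterpart 25819 and 29781 CPM, and the mature cluster with Ccr7 and Il12b 36342 and 32868 CPM. The Cd209a cluster had 9778 CPM (9458 to 10107) and 13293 CPM (12974 to 13618). In that cluster Ctss was 1123 and 1596 CPM, beside 479 and 513 CPM in the Xcr1 cluster. The Cd209a cluster, of 38 and 57 cells, thus had less Cst3 and more Ctss than the Xcr1 cluster in both libraries, with no overlap of the intervals.

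Cst3 became a larger part of the library with age. It made up 2660 CPM of all cells at 6 weeks and 8837 CPM at 9 weeks. Dendritic-like cells supplied 46.2% of it at 6 weeks and 79.3% at 9 weeks, and adrenocortical-like cells 30.5% and 5.38%. Over the same ages Cst3 was lower in endothelial-like (1399 and 1304 CPM) and macrophage-like cells (6225 and 4796 CPM). It was higher in T/NK-like (415 and 635 CPM), B cell-like (461 and 616 CPM), adrenocortical-like (1039 and 1323 CPM) and dendritic-like cells (31245 and 34186 CPM). Neutrophil-like (1659 and 1576 CPM) and monocyte-like levels (3638 and 3683 CPM) had overlapping intervals. The part of free Cst3 RNA in these levels was not tested. Ctsb shifted its source in a like way, with 69.8% from adrenocortical-like cells at 6 weeks and 63.7% from macrophage-like cells at 9 weeks, at a library level of 758 and 715 CPM. Ctss came mostly from macrophage-like cells at both ages, 80.9% and 80.2%, while its library level was 333 and 1146 CPM. These are shares of sequenced UMIs, set by how many cells of each type were sorted, and cell loss or release of RNA cannot be told apart from them.

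The balance of cysteine cathepsins and inhibitor was taken as the summed CPM of Ctsb, Ctsh, Ctsk, Ctsl, Ctss and Ctsz per CPM of Cst3. Since 1 UMI stands for 1 captured transcript end, no length correction was made, and the ratio is of transcripts and not of protein. Macrophage-like cells had 1.37 cathepsin transcripts per Cst3 transcript at 6 weeks and 1.98 at 9 weeks. Dendritic-like cells had 0.0465 and 0.0388. B cell-like cells had 2.44 and 2.15, endothelial-like cells 0.995 and 1.12, and adrenocortical-like cells 1.13 and 0.757. These are ratios of whole classes, whose clusters differ in share between the ages. The Cyp2f2 cluster of the cortex, high in Ctsb, held 1776 cells at 6 weeks and 129 at 9 weeks. The ratio within clusters was not taken, so the adrenocortical-like values do not show a shift within cortical cells. The ratio was higher at 9 weeks in macrophage-like and endothelial-like cells and lower in the other 3 classes. No interval was computed for these ratios. In B cell-like cells the ratio rests on 178 Cst3 UMIs at 6 weeks and 688 at 9 weeks, and its direction is not read as a difference.

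Other inhibitors were compared from wider lists. Cstb, an intracellular stefin, was the 1 other cystatin or stefin compared in macrophage-like cells, at 444 and 299 CPM (log2 ratio -0.56, not past 1.5-fold). In adrenocortical-like cells both genes compared were lower, Cstb at 363 and 236 CPM and Cst8 at 85.3 and 50.2 CPM, where 4.08% of all genes were lower. Of intracellular serpins, 1 of 4 was lower in macrophage-like cells (Serpinb1a, an inhibitor of granule proteases, at 15.5 and 5.70 CPM) and 2 of 5 in dendritic-like cells (Serpinb1a at 40.5 and 15.2 CPM and Serpina3g at 91.1 and 27.4 CPM). In dendritic-like cells 2 of 39 lysosomal genes were lower, the tetraspanin Cd63 at 66.1 and 35.4 CPM and the glucosidase Gaa at 13.8 and 7.37 CPM. Of all genes compared, 2.43% were lower past 1.5-fold in macrophage-like and 2.52% in dendritic-like cells.

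Ctse (ENSMUSG00000004552, chr1:131638306-131675505, plus strand) encodes cathepsin E, an aspartic protease of endosomes found in some immune cells, gastric epithelium and erythroid precursors. It was low in every class compared and lower at 9 weeks in all 6 immune classes. In each of these it reached 10 CPM, the level needed for comparison, only at 6 weeks. Macrophage-like cells had 10.6 CPM (8.18 to 13.4) and 1.38 CPM (0.885 to 2.06), dendritic-like cells 14.1 CPM (10.4 to 18.7) and 1.87 CPM (1.29 to 2.61), and B cell-like cells 25.9 CPM (12.4 to 47.6) and 4.47 CPM (1.45 to 10.4). Monocyte-like cells had 18.7 and 3.42 CPM, neutrophil-like cells 34.6 and 5.72 CPM and T/NK-like cells 14.4 and 2.86 CPM, where 3.97%, 33.5% and 2.65% of all genes were lower past 1.5-fold. The intervals of the ages do not overlap in any of these 6 classes. Neutrophil-like cells at 9 weeks included clusters almost missing at 6 weeks, and in the 1 cluster with cells of both ages (191 and 440) Ctse was at 35.2 CPM (17.6 to 62.9) and 14.4 CPM (7.69 to 24.7), which overlap.

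**Figure D5:**
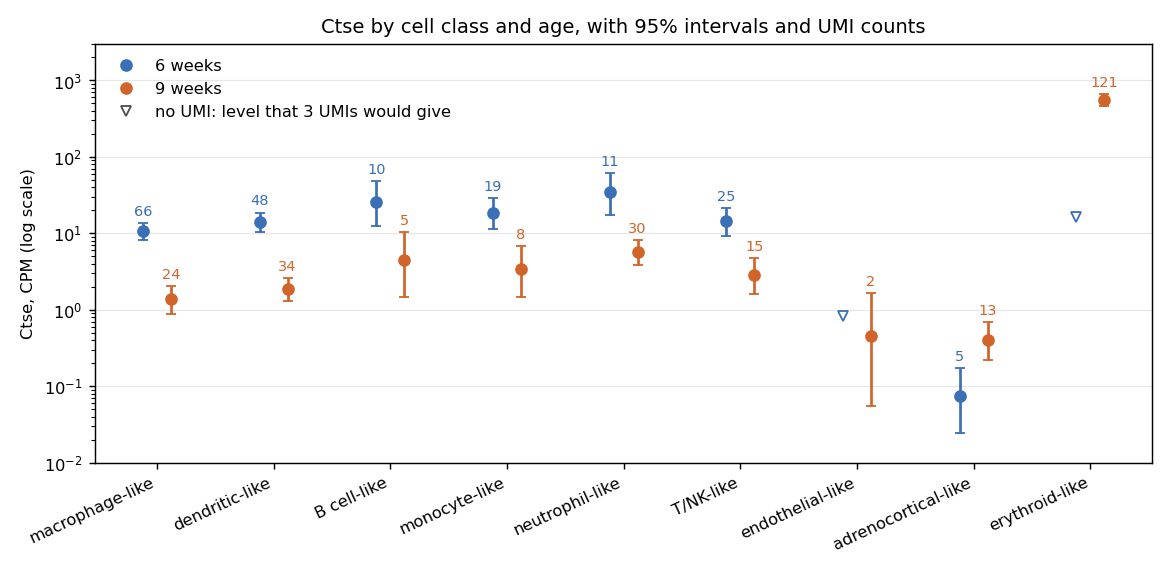
Ctse level in CPM on a log scale in 9 cell classes at 6 weeks (blue) and 9 weeks (orange), with exact Poisson 95% intervals and the number of UMIs above each; open triangles mark the level that 3 UMIs would give where none was found. The 6 immune classes on the left lie between 10.6 and 34.6 CPM at 6 weeks and between 1.38 and 5.72 CPM at 9 weeks, while erythroid-like cells reach 557 CPM at 9 weeks.

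Over the 6 immune classes together Ctse had 179 UMIs in 2091 cells at 6 weeks and 116 UMIs in 5934 cells at 9 weeks. This is 13.7 CPM (11.7 to 15.8) against 2.34 CPM (1.94 to 2.81), a ratio of 5.83 with a range of 4.17 to 8.17 from both intervals. A UMI was held by 7.56% of immune cells at 6 weeks (exact binomial interval 6.46 to 8.77) and by 1.84% at 9 weeks (1.51 to 2.21), although the 9-week cells were deeper, with medians of 6713.5 and 5067 UMIs. Most of these cells held a single UMI, 139 of 158 at 6 weeks and 102 of 109 at 9 weeks. Classes that should lack the gene had fewer, with 0.0930% of adrenocortical-like cells at 6 weeks and no UMI in 1532 endothelial-like cells, which allows up to 0.840 CPM (3 counts). The Ctse of immune cells at 6 weeks thus lay above the level in endothelial-like and adrenocortical-like cells of the same library.

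Few genes were lower in all immune classes at once. Of 5041 genes that could be compared in all 6 classes, 12 were lower past 1.5-fold in each, which is 0.238%, and 2 were higher in each. Ctse reached 10 CPM only at 6 weeks in all 6 classes. It could thus be counted there only as lower, and its place among the 12 is no measure of rarity. Besides Ctse the 12 were Akr1d1, Cyp21a1, Hsd3b1, Akr1cl, Cyp11b1, Adh1 and Star, which are genes of the cortex or of steroid and aldehyde metabolism, the nuclear RNA Neat1, and AY036118, Gm42418 and AC149090.1. The marker sum of adrenocortical cells, whose list itself holds Cyp21a1, Hsd3b1, Cyp11b1 and Star, went from 1194 to 773 CPM in macrophage-like and from 772 to 319 CPM in dendritic-like cells. Ctse was at 0.0742 CPM (0.0241 to 0.173) in adrenocortical-like cells at 6 weeks. The part of cortical RNA in the values of these 12 genes was not tested. The animals, the library and the age cannot be told apart as the source of the lower Ctse.

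In the whole 9-week library Ctse was not lower, at 2.44 CPM at 6 weeks and 2.96 CPM at 9 weeks. Erythroid-like cells, 17 at 9 weeks, held 121 of its 263 UMIs there, or 46.0%, at 557 CPM (462 to 666). Of the 9 of these cells with a Ctse UMI, which had up to 30 Ctse UMIs in a cell, 8 also held Klf1, a transcription factor of red cell precursors, at 404 CPM over the 9 cells. The 8 without Ctse held no Klf1 UMI. At 6 weeks the 9 cells of this cluster held no Ctse and no Klf1 UMI, and 8 of them held Star, so they do not carry the erythroid identity of the name. Of the 13 Ctse UMIs in adrenocortical-like cells at 9 weeks all were in 1 cell. Red cells were lysed and cells sorted for the dye Vybrant DyeCycle Ruby before capture, per the labels' protocols.

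The macrophage and dendritic values of Ctse depend on keeping these cells apart. When cells with over 10% mitochondrial UMIs were left out, or doublets were kept, 9 and 10 cells with over 5 Ctse UMIs were grouped with macrophage-like cells at 9 weeks, the level there was 8.46 and 8.63 CPM, and the log2 ratio was -0.16 and -0.11 in place of -1.29. Without these cells the levels were 1.34 and 1.40 CPM. In dendritic-like cells the same happened at resolution 0.5 and with at least 1000 genes per cell, with 10 and 7 such cells, levels of 8.72 and 7.55 CPM and log2 ratios of -0.34 and -0.50, and 1.77 and 1.74 CPM without them. The limit of 5 UMIs was chosen after the values were seen.

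Across the 16 levels of 8 classes at 2 ages, each member was set beside all other genes that reached 10 CPM in a class, by Pearson's correlation of log2 levels. These points share libraries and depth, and the values are a description. The gene most like Ctss was Ctsc (0.99), followed by Fcgr2b (0.97). Ctsb was closest to Acp2, a lysosomal phosphatase (0.98), and Lgmn to Atp13a2, a lysosomal pump (0.96). Ctsd was closest to Timp2, an inhibitor of metalloproteases (0.94), and Ctsl to Pros1, protein S (0.96). Ctsh was closest to Myo5a (0.91), Ctsz to Zfp385a (0.91) and Ctse to Nfkbid, whose correlation of 0.80 was the lowest of these. Among the members themselves the highest values were 0.80, for Ctsz with Ctsh and for Lgmn with Ctsb, and the lowest was -0.57, for Ctsl with Ctse.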

How the data were processed

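Single-cell RNA libraries of dissociated, sorted adrenal cells were analysed, 1 per age. The deposited values are whole-number counts of UMIs per gene and barcode, made with Cell Ranger 6.0.1 on mm10, per the file headers and the submitters' processing notes, which also name Seurat. Those notes give no annotation release, and Chromium 3' chemistry reads transcript ends.

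The matrices held 8880 barcodes with 97001752 UMIs at 6 weeks and 10812 with 99728879 at 9 weeks. Barcodes with under 500 genes (161 and 221) or over 25% mitochondrial UMIs (111 and 64) were removed. Scrublet in scanpy 1.11.5, at 0.8% expected per 1000 cells, called 475 (5.52%, expected 6.89%) and 586 (5.57%, expected 8.42%) doublets, which were removed. Both libraries were clustered together without integration (2000 variable genes without the 10 members, 30 components, 20 neighbours, Leiden resolution 1, leidenalg 0.10.2). Clusters with mixed leading genes were split 1 time at resolution 0.5, which gave 44. A cluster was named "-like" when at least 3 markers of a class were found in 25% of its cells and 2 times above the median cluster; this rule was set after the data had been seen.

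UMIs were summed per class and library, since cells are not replicates, and the log2 ratio used 5 CPM added to each level. Intervals are exact Poisson for levels and Clopper-Pearson for shares of cells, at 95%. Ranges of ratios combine both bounds. For shares each cell was thinned to 2000 UMIs. With 1 library per age no p-value was computed. The calculations were tested on simulated data. Coordinates are from GENCODE M21 on mm10 and promoters from RefSeq GRCm38.p6. Tables were handled with pandas 2.3.3 and numpy 2.4.6, intervals came from scipy 1.17.1 and figures from matplotlib 3.10.9, in Python 3.11.15.

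The members, the 7 wider lists and the comparisons were chosen with earlier results of these data known. Named from the lists were genes past 1.5-fold in macrophage-like or dendritic-like cells, at most 4 each way per list, and the 3 genes most like each member in pattern, of which the first are printed; other genes are named for context. Alternatives were pseudocounts of 1 and 20 CPM, a 2-fold limit, TMM scaling, equal weight per cell, stricter cell filters, doublets kept, members among the clustering genes, resolutions 0.5 and 2, clusters weighted alike, the largest cluster alone and cells without mitotic UMIs. Leaving out shared barcodes was added after the data had been seen. The gene most like Cst3 across cell classes is not reported here.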

Additional observations from a re-analysis of the deposited data

Results flagged for a closer look

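Classes outside the 5 described held higher levels of some members than all 8 classes compared. Plasmacytoid dendritic-like cells, 31 at 6 weeks and 48 at 9 weeks, had 1524 CPM (1368 to 1693) and 1406 CPM (1286 to 1533) of Ctsl, where endothelial-like cells, the highest of the 8 classes, had 740 and 745 CPM. Conventional dendritic-like cells had 12.6 and 8.96 CPM. After thinning, 87.1% and 87.5% of plasmacytoid dendritic-like cells held a Ctsl UMI, with medians of 3 and 2.

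The same cells had 1282 CPM (1139 to 1438) of Ctsh at 6 weeks, above the 973 CPM of macrophage-like cells. At 9 weeks they had 1213 CPM (1102 to 1331), and macrophage-like cells 1110 CPM. Their Cst3 level, 2494 and 2180 CPM, was below that of conventional dendritic-like cells.

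Erythroid-like cells at 9 weeks had 557 CPM of Ctse, above all 8 classes, from 121 UMIs in 17 cells. No test of these differences was possible with 1 library per age.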

How the results depend on the processing

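No paired analysis was possible because each age has 1 library and the labels give no replicate numbers. Over the 17 calls of 1.5-fold made on these genes in 8 classes, all kept their direction and call with members among the clustering genes, at resolution 2, at a pseudocount of 1 CPM and without shared barcodes. Of the same calls 16 held with TMM scaling, 16 at resolution 0.5, 16 at a pseudocount of 20 CPM, 16 with at most 10% mitochondrial UMIs, 15 with doublets kept, 13 with equal weight per cell, 13 in the largest cluster alone, 13 in cells without mitotic UMIs and 12 with clusters weighted alike. With at least 1000 genes per cell 11 of the 12 that could be compared held. In cells without mitotic UMIs 2 ratios of T/NK-like cells turned negative, Lgmn (-0.0136) and Cst3 (-0.40); the cause was not tested.

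The number of members past the fold moved as follows. The share of all genes past the fold under each setting is not set beside these counts, so they are not read as results about the members. In macrophage-like cells it was 1 in place of 2 at 20 CPM, at 10% mitochondrial UMIs, with doublets kept, in the largest cluster alone and at 2-fold. In dendritic-like cells it was 2 in place of 1 with doublets kept, at resolution 0.5 and with clusters weighted alike. At resolution 0.5 Ctse, with a log2 ratio of -0.34, was not among the members past the fold. In B cell-like cells it was 4 in place of 1 at 1 CPM and in cells without mitotic UMIs, 2 with equal weight per cell and at 10% mitochondrial UMIs, and 5 with doublets kept and at resolution 0.5. In adrenocortical-like cells it was 1 in place of 2 with doublets kept, with clusters weighted alike, in the largest cluster alone, in cells without mitotic UMIs and at 2-fold. The cause was not tested, other than for Ctse in macrophage-like cells at 10% mitochondrial UMIs and with doublets kept, where cells with over 5 Ctse UMIs were grouped with them. Of the 8 classes neutrophil-like and B cell-like cells held the fewest UMIs at 6 weeks, 318240 in 192 cells and 385967 in 135 cells, and Ctsk was too low to compare in any class.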

Other observations

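Plasmacytoid dendritic-like and conventional dendritic-like cells differed in further members in each library. Plasmacytoid dendritic-like cells had 1295 and 1257 CPM of Ctsb, beside 146 and 150 CPM in conventional dendritic-like cells, and 812 and 1053 CPM of Ctss, beside 526 and 527 CPM. Mast and basophil-like cells, 19 and 47 in number, had 1044 and 1137 CPM of Ctsd, below neutrophil-like cells at 6 weeks (1637 CPM) and above them at 9 weeks (523 CPM). In neutrophil-like cells Ctsd was lower at 9 weeks, in a class where 33.5% of genes were lower and whose clusters differ between the ages.

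In T/NK-like cells Ctss was at 95.04 and 193 CPM and Lgmn at 11.5 and 27.5 CPM, both higher past 1.5-fold at 9 weeks. The summed level of 10 macrophage markers in these cells was 113 and 424 CPM. The part of macrophage RNA in these values was not tested.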
